A study of Mus musculus with 4 samples.

Results

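Mast cells and basophils of the inflamed mouse colon were described from single-cell RNA sequencing of CD45+ leukocytes. Cells were chosen by raw counts of UMIs, unique molecular identifiers that mark single captured transcripts. A chosen cell had at least 3 UMIs summed over Cpa3, Ms4a2, Fcer1a, Mcpt8 and Gata2, at least 1 UMI of Gata2, and 0 UMIs of the T cell, B cell, neutrophil and phagocyte genes Cd3e, Cd3d, Cd79a, Csf3r and C1qa. The rule found 115 cells among 43432 cells with at least 200 genes and under 20% mitochondrial UMIs, that is 0.265% of cells. Samples 1 to 4 held 26 of 10986, 57 of 13223, 16 of 11164 and 16 of 8059 such cells.

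The study profiled colonic lamina propria leukocytes with 10x Genomics libraries from mice that received dextran sulfate sodium (DSS), a polymer that injures the colonic epithelium and causes acute colitis. All 4 samples came from mice given 2% DSS for 7 days, with tissue taken on day 8 and 3 mice mixed in each sample, enriched with anti-CD45 magnetic beads. The labels give an age of 10 weeks and the study's methods 8 weeks. The series compared wild-type (WT) and AhR-deficient mice, but the labels do not give the genotype of a sample, so no groups of samples were formed or tested. Levels are given for each sample, but the comparison of the cell states further on pools the cells of all 4 samples. The libraries held 113806334, 135516016, 101579112 and 72509408 UMIs in samples 1 to 4, and the chosen cells a median of 6079 UMIs (1296 to 29474). No barcode of a chosen cell was shared between samples.

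Mast cells and basophils are the leukocytes that carry the high-affinity IgE receptor, whose crosslinking by antigen releases stored granule mediators and induces cytokines and lipid mediators. Mast cells live in tissues and need Kit, the receptor for stem cell factor, and mouse mucosal mast cells of the gut store the chymase-like proteases encoded by Mcpt1 and Mcpt2, whereas connective tissue mast cells store Mcpt4, Cma1 and tryptases. Basophils circulate, enter inflamed tissue, and are known for Mcpt8, Cd200r3, histamine and interleukin-4. Gata2 is a zinc finger transcription factor that both lineages need and that binds GATA motifs in DNA.

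The chosen cells fell into 2 main states that the Mcpt8 and tryptase thresholds of the rule did not separate. For this reason the states were defined after the values had been seen. A state of 76 cells had Kit, Mcpt1 and Mcpt2, the markers of mucosal mast cells, and is called mast cell-like. A state of 36 cells had almost no UMI of these genes. Of these cells, all had Il6, 35 had Hdc and 31 had Cd200r3, and the state is called basophil-like. It includes 1 cell of sample 3 with 0 UMIs of Hdc, Cd200r3 and Ccl4 and 24 UMIs each of the pericyte and smooth muscle genes Rgs5 and Tagln, which goes against the name and is counted in the 36. The last 3 cells had Cdh5 and other endothelial genes. The states were formed after seeing the counts of these same cells, so values are given as descriptions with no test. Levels are CPM, the UMIs of a gene per 1000000 UMIs, after summing over the cells of a state in a sample, with 95% exact Poisson intervals, and shares of cells carry 95% exact binomial intervals. Both intervals cover counting error only, and RNA free in the suspension adds UMIs that no interval covers. The median depth was 7667 UMIs in mast cell-like and 3899 UMIs in basophil-like cells. A level of a sample is given in the text only where the state held at least 10 cells there. For the other samples UMIs are given for the genes described at most length.

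Promoter sequences from RefSeq on GRCm38.p6 are shown for 4 genes that mark the states, to place the Gata2 requirement of the rule beside the genes found with it. Each window runs from 250 bases before to 50 bases after the start of the gene, is written 5′ to 3′ along the gene, and has AGATAA or TGATAA, or their reverse complements TTATCT or TTATCA, in capitals. Cpa3 encodes the mast cell carboxypeptidase, which a share of basophils also uses, Mcpt1 a mucosal mast cell chymase, Cd200r3 an activating receptor of basophils and mast cells, and Il6 the cytokine interleukin-6. The windows are chr3:20242132-20242431 on the minus strand for Cpa3, chr14:56017714-56018013 on the plus strand for Mcpt1, chr16:44943428-44943727 on the plus strand for Cd200r3 and chr5:30012864-30013163 on the plus strand for Il6.
Cpa3: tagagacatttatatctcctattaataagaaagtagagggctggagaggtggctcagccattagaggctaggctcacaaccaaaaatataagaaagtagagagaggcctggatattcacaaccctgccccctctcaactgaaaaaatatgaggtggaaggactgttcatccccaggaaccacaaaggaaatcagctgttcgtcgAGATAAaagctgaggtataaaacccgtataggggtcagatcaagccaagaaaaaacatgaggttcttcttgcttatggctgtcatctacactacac
Mcpt1: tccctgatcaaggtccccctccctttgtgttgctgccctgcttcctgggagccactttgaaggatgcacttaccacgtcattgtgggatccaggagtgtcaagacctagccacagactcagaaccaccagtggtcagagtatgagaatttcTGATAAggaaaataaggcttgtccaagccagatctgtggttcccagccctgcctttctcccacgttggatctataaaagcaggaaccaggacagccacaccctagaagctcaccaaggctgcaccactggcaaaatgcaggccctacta
Cd200r3: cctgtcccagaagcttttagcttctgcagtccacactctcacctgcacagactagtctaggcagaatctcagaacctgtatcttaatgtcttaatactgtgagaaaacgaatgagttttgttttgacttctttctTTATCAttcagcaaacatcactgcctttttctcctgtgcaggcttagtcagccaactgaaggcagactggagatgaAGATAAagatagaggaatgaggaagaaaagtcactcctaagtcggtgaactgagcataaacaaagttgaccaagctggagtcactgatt
Il6: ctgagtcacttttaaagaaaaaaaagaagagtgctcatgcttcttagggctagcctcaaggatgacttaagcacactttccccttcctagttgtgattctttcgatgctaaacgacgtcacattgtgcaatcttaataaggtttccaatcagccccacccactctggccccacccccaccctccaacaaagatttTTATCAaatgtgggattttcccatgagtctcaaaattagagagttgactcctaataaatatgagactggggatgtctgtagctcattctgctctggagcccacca
Either motif was present in 18.6% of 32851 promoter windows of the same length, AGATAA in 11.2% and TGATAA in 9.05%. The Cd200r3 window held both. Windows of 20 genes of the states were searched, and the 4 shown are among the 10 with a motif. The windows of the other 10, Mcpt8, Cma1, Kit, Hdc, Tph1, Hpgds, Gata2, Csf1, Ccl3 and Hgf, held neither, which says only that these letters are not in these windows. Mcpt2, Tpsb2 and Ccl4 had no entry in the promoter table used.

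The split that came with the rule was tried first. It calls a cell a basophil with at least 2 UMIs of Mcpt8, the gene of mouse mast cell protease 8 that is commonly used to mark basophils, and a mast cell with at least 2 UMIs of the tryptase gene Tpsb2 plus the chymase gene Cma1. It gave 14 mast cells, 30 basophils, 13 cells that met both thresholds and 58 that met neither. In samples 1 to 4 there were 1, 6, 2 and 5 of these mast cells and 10, 15, 4 and 1 of these basophils. The leading genes of the 30 cells called basophils, against all other cells of samples 1 and 2 where at least 10 of them were found, were Mcpt2 and Mcpt1, at log2 ratios of at least 7.31 and 7.11. These are mast cell genes, so the leading genes in samples 1 and 2 went against the name. Of 43 cells with at least 2 UMIs of Mcpt8, 32 were mast cell-like and 11 basophil-like. All 14 cells called mast cells and all 13 cells that met both thresholds were mast cell-like, as were 19 of the 30 called basophils and 30 of the 58 that met neither. These 19 were 4 of the 10 called basophils in sample 1 and all 15 in sample 2. In samples 3 and 4 all cells called basophils, 4 and 1, were basophil-like.

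Between the 14 and the 30 cells, called by the split, 287 of 5365 genes with at least 10 UMIs (5.35%) were at least 2-fold higher in the 14 on the log2(CPM + 20) scale, and 703 (13.1%) were at least 2-fold higher in the 30. Among the granule proteases, leaving out Tpsb2, Cma1 and Mcpt8, which made the split, 4 of 10 members that passed the filter were higher in the 14 and 2 were higher in the 30. Of the 12 genes with the largest ratios toward the 30 cells, Cxcl13, Dcn and Col3a1 are stromal genes. Since most cells in both groups were mast cell-like, the split is not used further.

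**Figure D1:**
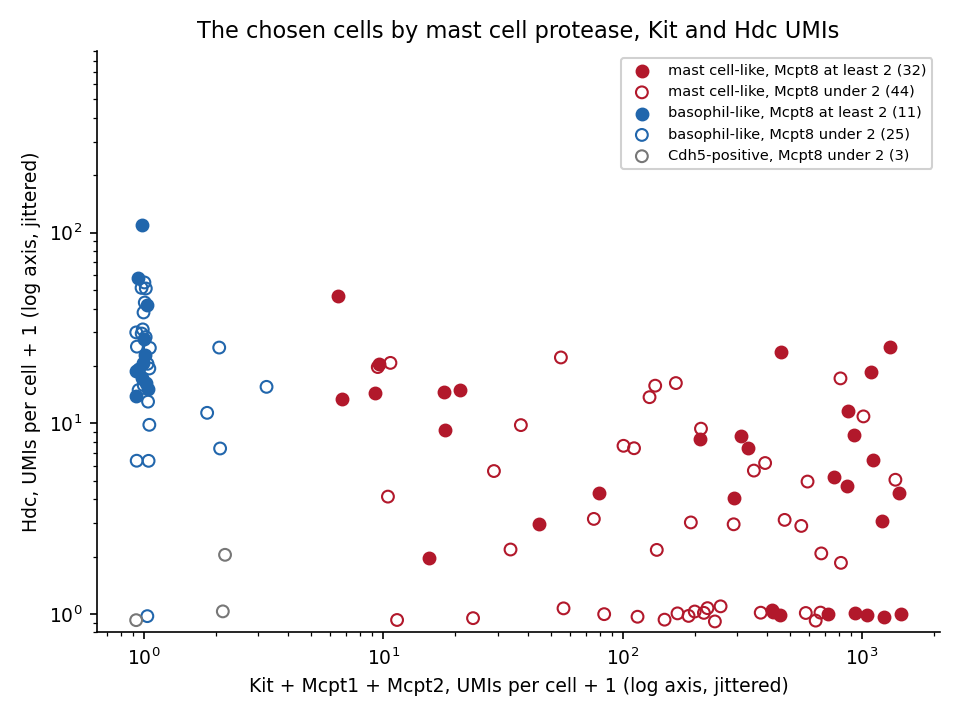
Each point is 1 of the 115 chosen cells, with the summed UMIs of Kit, Mcpt1 and Mcpt2 plus 1 on the x axis and the UMIs of Hdc plus 1 on the y axis, both logarithmic and slightly jittered. Colours give the state and filled points at least 2 UMIs of Mcpt8. The 36 basophil-like cells lie at 0 to 2 UMIs of the 3 genes, the 76 mast cell-like cells at 6 or more, and filled points occur on both sides.

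The sum of Kit, Mcpt1 and Mcpt2 had a gap between the states. Leaving aside the 3 endothelial-marked cells, 32 cells had 0 UMIs of the 3 genes, 3 had 1 UMI, 1 had 2 UMIs and none had 3 to 5 UMIs. The mast cell-like cells had at least 6, a median of 238 and at most 1514 UMIs. The cells were divided at 3 UMIs, inside this gap. In the plot of Hdc against these genes, the groups do not touch along the x axis, but their Hdc counts overlap, from 0 to 44 UMIs in mast cell-like and from 0 to 114 UMIs in basophil-like cells.

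The samples held different mixtures of the states. Sample 2 had 49 mast cell-like and 8 basophil-like cells, so that 86.0% (74.2 to 93.7) of its chosen cells were mast cell-like. Sample 4 had 11 and 5 cells, and sample 1 had 12 and 13 cells. Sample 3 had 4 and 10 cells, with 25.0% (7.27 to 52.4) mast cell-like. Of all kept cells, mast cell-like cells made up 0.109%, 0.371%, 0.0358% and 0.136% in samples 1 to 4. The interval of sample 2 (0.274 to 0.490%) lay above those of the other samples, the highest of which reached 0.244%. With 0 UMIs of 7 further lineage genes also required, 50 mast cell-like cells remained, 10, 27, 3 and 10 in samples 1 to 4, and the interval of sample 2 (0.135 to 0.297%) overlapped that of sample 4 (0.0595 to 0.228%). With cells of over 3 times the median depth of their sample left out, the interval of sample 2 began at 0.216%, below 0.244% in sample 4. Basophil-like cells made up 0.118%, 0.0605%, 0.0896% and 0.0620%, with overlapping intervals in the 4 samples. Bead enrichment and dissociation also set such shares, and their part in the result was not tested.

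**Figure D2:**
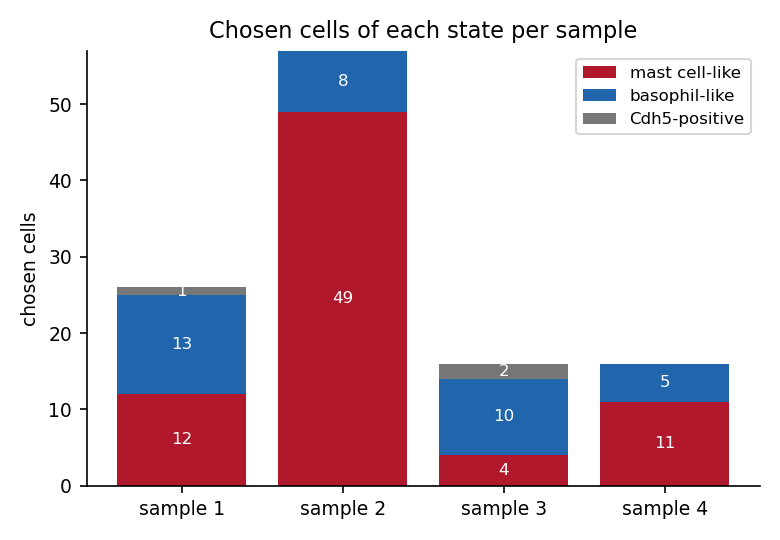
Stacked bars give the number of chosen cells in each of the 4 samples, with mast cell-like, basophil-like and Cdh5-positive cells as segments. Sample 2 holds 49 of the 76 mast cell-like cells, while the 36 basophil-like cells are spread as 13, 8, 10 and 5.

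The rule bounded the states unevenly, which matters for their numbers. At the threshold, 8 chosen cells had a 5-gene sum of exactly 3 UMIs, of which 2 were mast cell-like, 3 basophil-like and 3 endothelial-marked, and 14 cells with a sum of 2 UMIs lay just outside. Of those 14 cells, 8 had at least 2 UMIs of the endothelial gene Cdh5, 3 had at least 5 UMIs of Hdc and none had 3 UMIs of Kit, Mcpt1 and Mcpt2. A further 100 cells met the rule except for a UMI of a lineage gene, 15, 65, 11 and 9 in samples 1 to 4, and 81 of them had at least 3 UMIs of Kit, Mcpt1 and Mcpt2. Their median depth was 13208 UMIs against 6079 in the chosen cells, and 28 of them had only 1 lineage UMI. Another 18 cells lacked only a UMI of Gata2, and 17 of these had at least 3 UMIs of Kit, Mcpt1 and Mcpt2. Of 170 kept cells with at least 20 UMIs of Mcpt1 plus Mcpt2, 64 were chosen. Of 56 kept cells with at least 2 UMIs of Cd200r3 and 5 of Hdc, 29 were chosen, 23 as basophil-like and 6 as mast cell-like, and 23 of the 27 left out had a UMI of a lineage gene. Whether those cells are doublets, cells with free RNA or cells that use these genes was not tested.

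Mast cell-like cells were led by mucosal proteases. Against all other cells of samples 1, 2 and 4, the 15 genes with the largest smallest ratio were Mcpt1, Mcpt2, Car8, Cpa3, Thsd4, Mcpt8, Slc24a3, Hs6st2, Gata2, Mctp1, Rad51b, Cyp11a1, Sox5, Cma1 and Rab27b. Cpa3, Mcpt8 and Gata2 were used by the rule. Hs6st2 encodes a heparan sulfate sulfotransferase, Rab27b a small GTPase of secretory granules, and Cyp11a1 the enzyme that makes pregnenolone from cholesterol. The mast cell marker list, which holds genes that chose or grouped the cells, summed to 46887 CPM in these cells, 3291 CPM in basophil-like cells and 292 CPM in other cells, and the basophil list to 3495, 8433 and 30.01 CPM. The basophil list holds every gene that the rule summed, Gata2 among them. The choice of cells thus bears on the excess of both lists over other cells, which is a description only. The 8433 CPM included 1 cell of sample 4 with 401 UMIs of Prss34 and 254 of Mcpt8. In basophil-like cells of samples 1 and 3 the basophil list summed to 3561 and 4336 CPM. In mast cell-like cells of samples 1, 2 and 4 it summed to 2725, 3473 and 5308 CPM. In sample 2 it was lower in the 8 basophil-like cells than in the mast cell-like cells.

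Mcpt1 (chr14:56017971-56020384) stood at 23101 CPM (22327 to 23895), 25715 CPM (25281 to 26155) and 16886 CPM (15949 to 17864) in samples 1, 2 and 4, with 160 UMIs in the 4 cells of sample 3. Mcpt2 (chr14:56042041-56044642) stood at 14108 CPM, 17164 CPM and 18363 CPM, with 22 UMIs in sample 3. The 2 genes together made up several percent of the UMIs of the mast cell-like cells in each of these samples, and their intervals do not all overlap. A UMI of Mcpt1 was found in 66 of 76 cells, with a median of 139 and up to 1062 UMIs per cell. In the basophil-like cells Mcpt1 had a single UMI and Mcpt2 none, which the division by these genes fixed. With basophil-like cells set at 3 counts over the state, Mcpt2 was at least 875-fold higher in the mast cell-like cells, as a description of that division. In all other cells Mcpt1 stood at 46.1, 145, 5.13 and 27.6 CPM in samples 1 to 4. These other cells include cells rich in proteases that the rule left out, and in sample 2 the chosen cells held 13343 of the 32681 Mcpt1 UMIs of kept cells and 43 of the 124 cells with at least 20 UMIs of Mcpt1 plus Mcpt2.

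**Figure D3:**
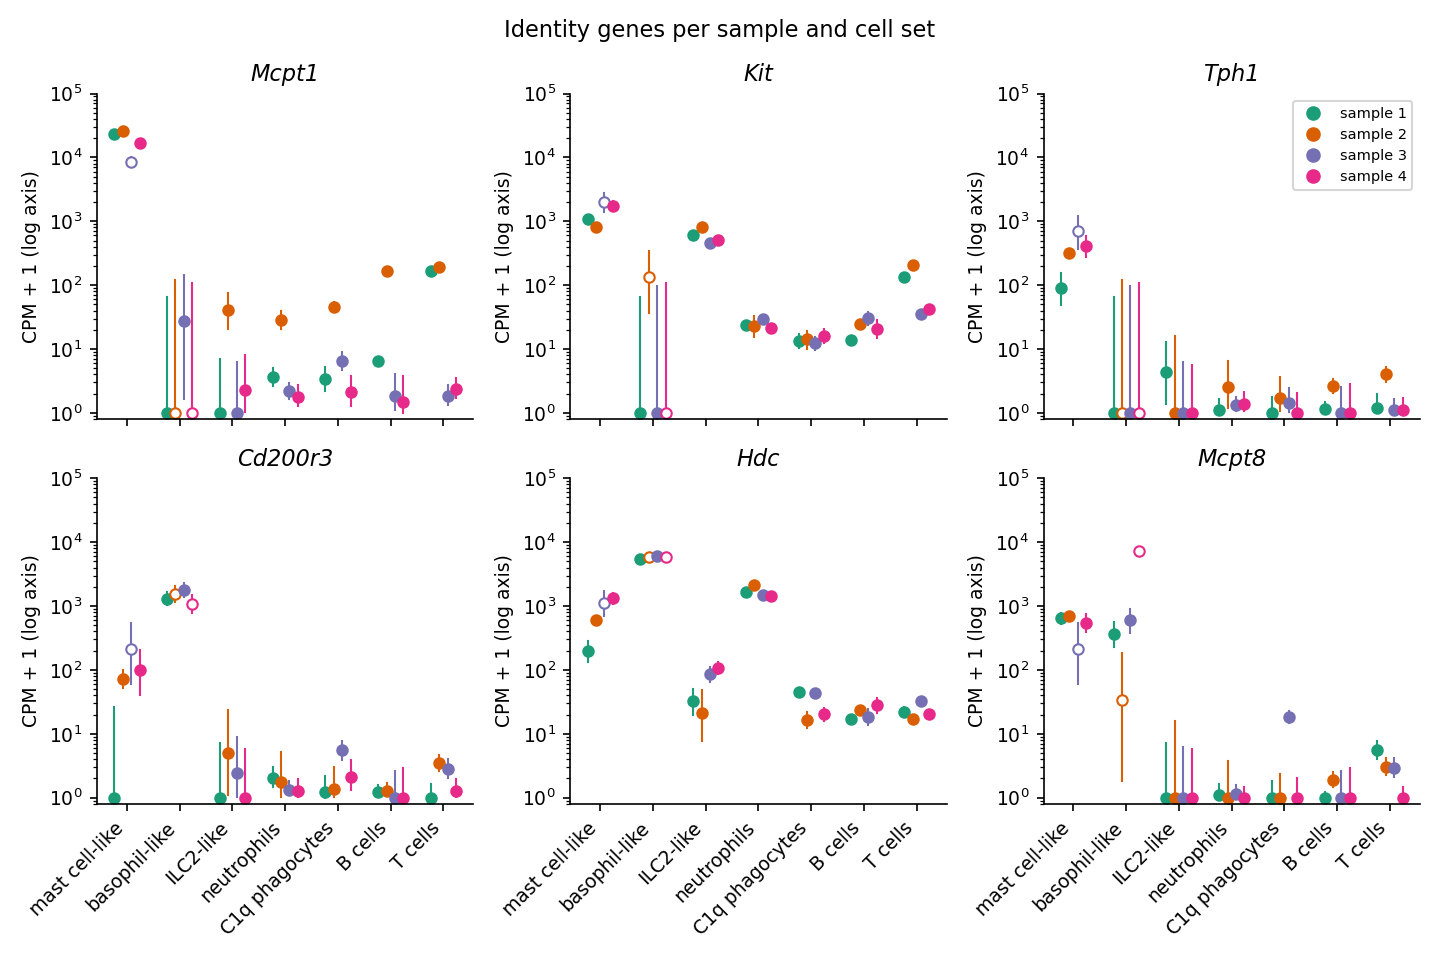
Points give the level of 6 genes in CPM plus 1 on a logarithmic axis for 7 sets of cells in each of 4 samples, with 95% exact Poisson intervals as lines, and open points stand for sets of under 10 cells. Within samples 1, 2 and 4, Mcpt1 and Tph1 are highest in the mast cell-like cells among the sets drawn. Cd200r3 is above 1000 CPM in the basophil-like cells of samples 1 and 3, and Mcpt8 is present in both states.

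Genes of connective tissue mast cells differed in how many cells held them. Mcpt4 stood at 295, 1320 and 2926 CPM in samples 1, 2 and 4 and was found in 39 of 76 cells. In sample 4, 135 of its 210 UMIs lay in 1 cell. Of its 965 UMIs, 753 lay in the 64 cells with at least 10 UMIs of Mcpt1 plus Mcpt2. Cma1 was found in 35 cells. Tpsb2, the gene of a mast cell tryptase, stood at 48.1, 270 and 3469 CPM, and 59.6% of its 406 UMIs came from 1 cell of sample 4. Only 11 of 76 cells had a UMI of Tpsb2. Among the 12 cells with under 10 UMIs of Mcpt1 plus Mcpt2, 2 cells, in samples 2 and 4, had at least 30 UMIs of Tpsb2, 0 UMIs of Mcpt1 and Mcpt2, and summed levels of 33719 CPM for Tpsb2, 25289 CPM for Cpa3, 23604 CPM for Mcpt4 and 21918 CPM for Cma1. These 2 cells thus had the protease set known from connective tissue mast cells. Of 29 UMIs of Mrgprb1, a receptor gene of the Mas-related family, 28 lay in 1 cell of sample 4, and so did all 5 UMIs of Mrgprb2, which encodes a receptor for basic secretagogues on connective tissue mast cells.

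The other 10 cells with under 10 UMIs of Mcpt1 plus Mcpt2 were described apart. Their Kit level was 950 CPM, against 982 CPM in the 64 cells with at least 10 UMIs of the 2 proteases. Mcpt8 stood at 1071 CPM, with a UMI in 8 of the 10 cells, against 581 CPM in the 64 cells, where 29 had a UMI. Of the 124 Mcpt8 UMIs in the 10 cells, 60 came from 1 cell of sample 2, and without it the level was 644 CPM, close to that of the 64 cells. Hdc stood at 1243 CPM against 457 CPM, and at 1037 CPM without the cell with the most Hdc. These 10 cells were found in all 4 samples, as 2, 5, 1 and 2 cells. They are too few for a reading per sample.

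Mcpt8 therefore did not separate the states here. The 32 mast cell-like cells with at least 2 UMIs of Mcpt8 had a median depth of 12022.5 UMIs, against 5927 in the other 44. Whether doublets had a part in this was not tested. In mast cell-like cells it stood at 638 CPM (515 to 782), 684 CPM (615 to 759) and 543 CPM (386 to 743) in samples 1, 2 and 4, with overlapping intervals. In basophil-like cells it stood at 365 CPM (226 to 558) in sample 1 and 601 CPM (381 to 901) in sample 3, and had 1 UMI in the 8 cells of sample 2 and 255 UMIs in the 5 cells of sample 4. Of those 255 UMIs, 254 came from 1 cell, which also held all 401 UMIs of Prss34, the gene of a basophil protease, and 39 of the 64 UMIs of Cpa3 in this state. Without that cell, Mcpt8 stood at 314 CPM in basophil-like cells against 650 CPM in mast cell-like cells, and the log2 ratio of mast cell-like over basophil-like cells turned from -1.49 to 1.0. With each cell thinned to 1000 UMIs, 26.3% of mast cell-like and 25.0% of basophil-like cells had a UMI of Mcpt8, against 38 of 76 and 18 of 36 cells before thinning. These pooled shares hide differences between samples. Before thinning, samples 1 to 4 had it in 8 of 12, 27 of 49, 1 of 4 and 2 of 11 mast cell-like cells. In basophil-like cells it was found in 9 of 13, 1 of 8, 6 of 10 and 2 of 5. Only in sample 2 was the share higher in mast cell-like cells. B cells, which should lack the gene and had a median of 5687 UMIs, had none after thinning, with an upper limit of 0.0830%. Mcpt8 was in the sum of the rule, which B cells did not have to meet. The difference from B cells is therefore a description only. Mcpt8 shared no stretch of 50 bases with Mcpt1, Mcpt2, Mcpt4, Mcpt9, Cma1 or Cma2 in the last 500 bases of its transcript. Mcpt9 shared 51.2% and Mcpt4 12.9% of such stretches with Cma2, so the split of counts among these 3 genes is uncertain.

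Basophil-like cells were led by Il6, Gata2, Cyp11a1, Cd200r3, Hgf, Car8, Slc24a3, Gzmb, Tec, Slc18a2, Mboat1, Slco2b1, Ccl4, Gcnt1 and Ccl3, the 15 genes with the largest smallest ratio against other cells of samples 1 and 3. Gata2, Car8, Cyp11a1 and Slc24a3 were in the leading genes of both states. The rule required Gata2, and 23 of 36 basophil-like cells reached its sum only with Gata2. The choice of cells thus bears on the place of Gata2 in both lists. Of the basophil markers, Itga2, which encodes the DX5 antigen used to sort basophils, was found in only 6 cells and in no mast cell-like cell, Fcer1a in 4 and Ms4a2 in 10. The last pair encodes IgE receptor chains and was used by the rule.

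Hdc, which encodes the histidine decarboxylase that makes histamine, stood at 5367 CPM (4785 to 6000) in sample 1 and 5955 CPM (5207 to 6780) in sample 3, with 178 and 204 UMIs in samples 2 and 4. It was found in 35 of 36 cells. The level hardly differed between these samples and lay above that of the mast cell-like cells, at 199, 597 and 1324 CPM in samples 1, 2 and 4. Neutrophils also used Hdc, at 1661, 2105, 1462 and 1453 CPM in samples 1 to 4. Cd200r3 (chr16:44943678-44981380) stood at 1303 CPM (1025 to 1633) and 1802 CPM (1402 to 2281) in samples 1 and 3, with 47 and 38 UMIs in samples 2 and 4. It was found in 31 of 36 basophil-like and 18 of 76 mast cell-like cells. At 1000 UMIs per cell, 55.6% (38.1 to 72.1) of basophil-like, 5.26% (1.45 to 12.9) of mast cell-like and 0.0450% of B cells had a UMI of Cd200r3. Before thinning these shares were 86.1%, 23.7% and 0.180%.

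Il6 had a UMI in all 36 basophil-like cells. The UMIs per cell ran from 7 over a median of 31 to 56 in sample 1, from 1 over 11 to 30 in sample 2, from 4 over 15 to 76 in sample 3 and from 4 over 8 to 102 in sample 4. The level of Il6 (chr5:30013114-30019981) was 6878 CPM (6217 to 7590) in sample 1 and 6216 CPM (5452 to 7058) in sample 3. Mast cell-like cells stood at 501 CPM (393 to 630), 231 CPM (192 to 277) and 669 CPM (493 to 887) in samples 1, 2 and 4, between the basophil-like cells and all other cells, which stood at 15.8, 8.96, 41.3 and 38.2 CPM in samples 1 to 4. At 1000 UMIs per cell, 97.2% of basophil-like, 27.6% of mast cell-like and 0.113% of B cells had a UMI of Il6, and before thinning 100%, 52.6% and 1.04%.

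The basophil-like cells held far more of the Il6 UMIs of a sample than their number. In sample 1, 13 cells, 0.118% of kept cells, held 396 of 2274 Il6 UMIs, or 17.4% (15.9 to 19.0). The shares were 8.16% (117 of 1433) from 8 cells in sample 2, 5.40% (238 of 4411) from 10 cells in sample 3 and 5.37% (157 of 2925) from 5 cells in sample 4. Mast cell-like cells held 3.21%, 8.37%, 0.272% and 1.64%. Most Il6 UMIs of each sample thus lay outside the chosen cells. The 27 kept cells with Cd200r3 and Hdc that the rule left out had Il6 at 1965 CPM.

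Il4, the type 2 cytokine gene that basophils are known for, was uneven. It stood at 278 CPM (159 to 451) in basophil-like cells of sample 1 and 2063 CPM (1634 to 2572) in those of sample 3, with 12 and 17 UMIs in samples 2 and 4. These intervals do not overlap. In sample 3, the 10 basophil-like cells held 79 of 221 Il4 UMIs, or 35.7% (29.4 to 42.4), whereas in samples 1, 2 and 4 they held 4.08%, 2.46% and 5.45%. The 79 UMIs of sample 3 lay mainly in cells with 36, 18 and 15 UMIs, and the first of these gave 36 of the 124 Il4 UMIs of the state. Mast cell-like cells had Il4 at 54.9, 73.2 and 265 CPM in samples 1, 2 and 4, and ILC2-like cells, chosen by Gata3, Rora and Il7r, at 113, 207, 14.3 and 35.7 CPM in samples 1 to 4. Il13 had 15 UMIs in the basophil-like and 25 in the mast cell-like cells, 12 of the latter from 1 cell of sample 3.

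**Figure D4:**
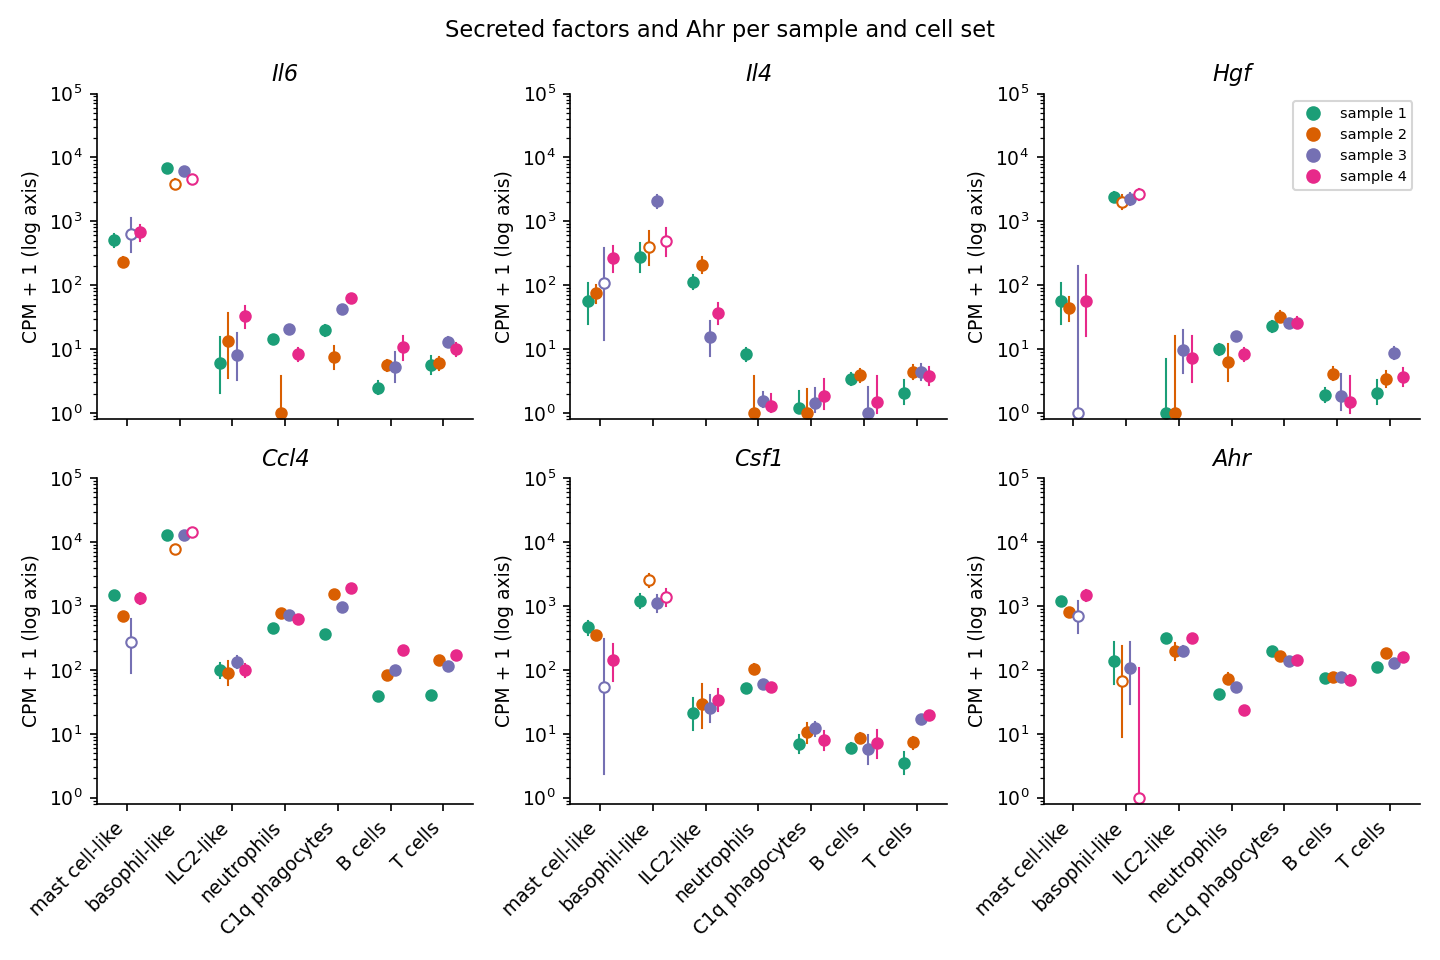
Points give the level of 6 genes in CPM plus 1 on a logarithmic axis for 7 sets of cells in each of 4 samples, with 95% exact Poisson intervals as lines, and open points stand for sets of under 10 cells. Within samples 1 and 3, Il6, Hgf, Ccl4 and Csf1 are highest in the basophil-like cells among the sets drawn. Within samples 1, 2 and 4, Ahr is highest in the mast cell-like cells.

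Hgf, the gene of hepatocyte growth factor, had a steady level in the basophil-like cells, 2432 CPM (2045 to 2869) in sample 1 and 2246 CPM (1797 to 2774) in sample 3, with 61 and 92 UMIs in samples 2 and 4. It was found in 32 of 36 cells. Other cells stood at 8.34, 7.43, 20.4 and 12.8 CPM, and mast cell-like cells at 54.9, 42.4 and 55.7 CPM in samples 1, 2 and 4. Csf1, the gene of macrophage colony-stimulating factor, stood at 1198 and 1097 CPM in the basophil-like cells of samples 1 and 3, with 76 and 48 UMIs in samples 2 and 4, and at 460, 345 and 139 CPM in mast cell-like cells of samples 1, 2 and 4. In other cells it ranged from 13.5 to 36.4 CPM. A transcript level does not show secretion of the factor.

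Chemokine genes were abundant in the basophil-like cells. Ccl4, which encodes a chemokine that attracts leukocytes, stood at 12939 CPM (12027 to 13903) in sample 1 and 12955 CPM (11840 to 14147) in sample 3, the highest level of a listed gene in this state, with 238 and 497 UMIs in samples 2 and 4. Ccl3, its neighbour on chromosome 11, stood at 10699 and 5798 CPM in samples 1 and 3, with 134 and 228 UMIs in samples 2 and 4. Mast cell-like cells had Ccl4 at 1462, 703 and 1324 CPM in samples 1, 2 and 4. In sample 2, 1 cell with 6 UMIs of Kit, Mcpt1 and Mcpt2, close to the division, held 194 Ccl4, 221 Ccl3, 137 Il1b and 44 Hdc UMIs, 3 of Cd200r3 and none of Cpa3, and without it Ccl4 stood at 342 CPM there. The related genes Ccl6 and Ccl9 stood at 5784 and 3074 CPM in sample 1 and 2455 and 2325 CPM in sample 3 in basophil-like cells, and had 18 and 9 UMIs in all 76 mast cell-like cells against 578 and 457 UMIs in all basophil-like cells. Cxcl2, which encodes a neutrophil attractant, stood at 7069 and 3578 CPM in samples 1 and 3, above the neutrophils of sample 1 at 5866 CPM and below those of sample 3 at 7016 CPM, so that the order turned between the samples. Il1b stood at 5054 and 3709 CPM, against 2351 and 2622 CPM in neutrophils and 3252 and 2115 CPM in phagocytes that had C1q and Csf1r transcripts.

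Across all genes, the 2 states were compared on the sums of their cells over the 4 samples, 755012 UMIs in mast cell-like and 161030 UMIs in basophil-like cells, since only sample 1 held 10 cells of both. Sample 2 gave 518880 of the UMIs of the mast cell-like sum. Of 7624 genes with at least 10 UMIs, 1308 (17.2%) were at least 2-fold higher in mast cell-like cells on the log2(CPM + 20) scale and 602 (7.9%) were at least 2-fold higher in basophil-like cells, with a median log2 ratio of 0.34 over all genes. Of the 1308 genes, 436 had 0 UMIs in the basophil-like cells, and 74 of these 436 stayed 2-fold higher when set at 3 counts. Within samples, 537 of the 1308 genes were higher in mast cell-like cells in all 4 samples and 347 of the 602 in basophil-like cells in all 4. The lists below were chosen with earlier results of these data known.

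Granule proteases divided between the states. The shares called over all genes were 17.2% toward mast cell-like and 7.9% toward basophil-like cells. Of 15 genes on this list, 13 passed the filter, 8 were higher in mast cell-like cells (Cpa3, Tpsb2, Cma1, Cma2, Mcpt1, Mcpt2, Mcpt4 and Mcpt9) and 3 in basophil-like cells (Mcpt8, Prss34 and Srgn), with a median log2 ratio of 2.09, or 1.69 with genes at 0 UMIs set at 3 counts. Mcpt1 and Mcpt2 grouped the cells and Cpa3 and Mcpt8 were in the rule, so the choice of cells bears on their direction. Without these 4 genes, 5 members were higher in mast cell-like and 2 in basophil-like cells, and the median was 2.06. With the states divided at 10 UMIs of Kit, Mcpt1 and Mcpt2, which moved 5 cells with 135 Mcpt4 and 191 Cpa3 UMIs, Cpa3 fell to 0.54 and Mcpt4 from 6.02 to 0.99, so that neither was 2-fold higher. Among those 5 cells, 1 cell of sample 4 also held 242 of the 406 Tpsb2 and 130 of the 438 Cma1 UMIs. With it moved, Tpsb2 and Cma1 were no longer higher in mast cell-like cells. Mcpt8 and Prss34 rested on the 1 cell of sample 4. Srgn, which encodes the proteoglycan core that packs granule proteases, stood at 10925 and 6216 CPM in basophil-like cells of samples 1 and 3, with 290 and 207 UMIs in samples 2 and 4, and at 2471, 2789 and 3413 CPM in mast cell-like cells of samples 1, 2 and 4. Gzmb, the gene of the cytotoxic protease granzyme B, was high in both states, at 2414 and 5093 CPM in basophil-like cells of samples 1 and 3 and 1984, 2253 and 4514 CPM in mast cell-like cells of samples 1, 2 and 4, against 52.4 to 167 CPM in other cells. Its log2 ratio between the states was -0.14.

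Amine and lipid mediator genes were called in both directions. Of 5 genes of histamine and serotonin synthesis and storage that passed the filter, 1 was higher in mast cell-like and 2 in basophil-like cells. Over all genes 17.2% and 7.9% were called in these directions. Tph1, the first enzyme of serotonin synthesis, stood at 89.2, 318 and 404 CPM in mast cell-like cells of samples 1, 2 and 4 and had no UMI in basophil-like cells, at least 15.6-fold lower. Hdc and Slc18a2, the vesicular transporter of histamine and serotonin, were higher in basophil-like cells. Of 9 genes of prostaglandin and leukotriene synthesis, 8 passed the filter, 1 was higher in mast cell-like cells, 2 in basophil-like cells and the rest in neither. Hpgds, which makes prostaglandin D2, was higher in mast cell-like cells, at 254, 451 and 780 CPM in samples 1, 2 and 4 against 1 UMI in the 36 basophil-like cells. Ptgs2 and Alox5ap, of the prostaglandin and leukotriene routes, were higher in basophil-like cells.

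**Figure D5:**
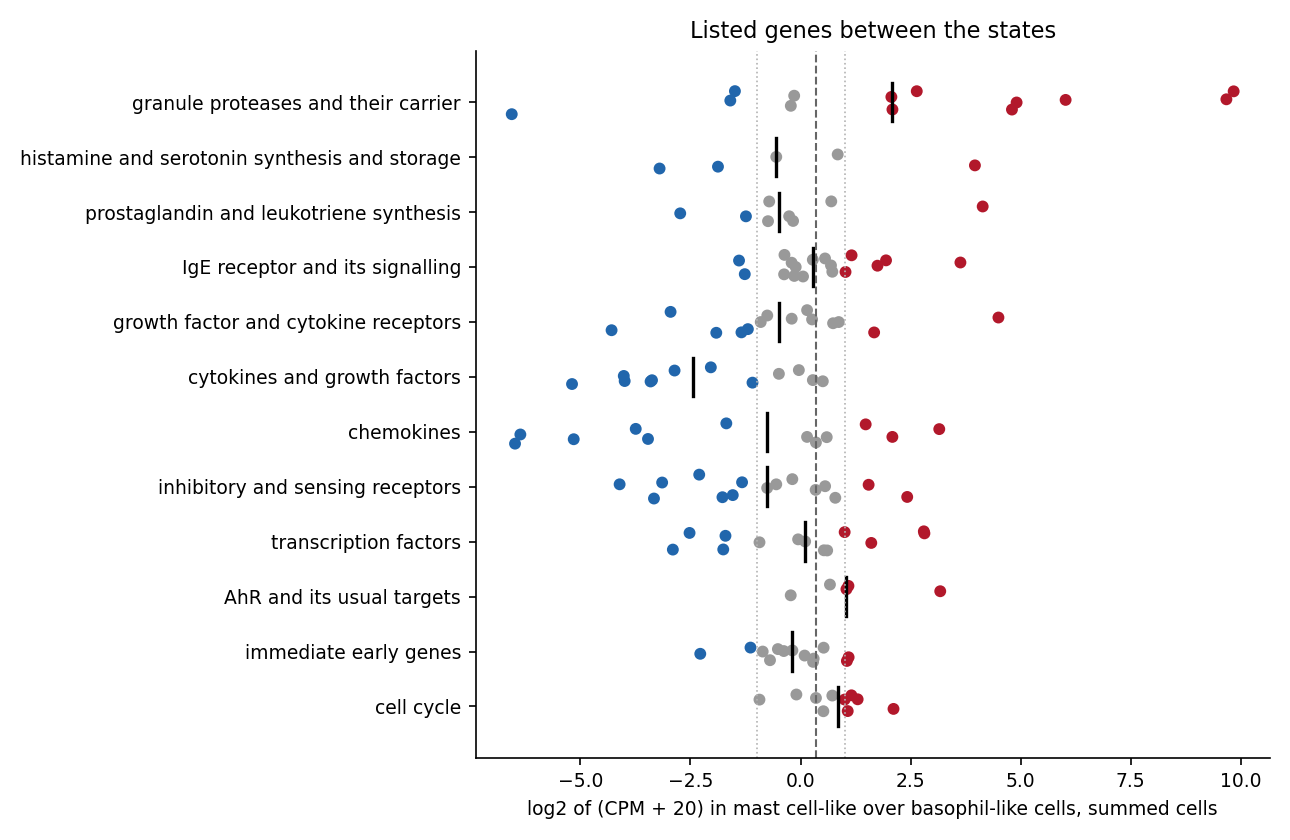
Each point is a listed gene that passed the filter, with the log2 ratio of CPM plus 20 in mast cell-like over basophil-like cells, summed over the 4 samples, on the x axis and 12 lists on the y axis. Red and blue points are at least 2-fold higher in mast cell-like and basophil-like cells, black bars mark list medians, dotted lines 2-fold and the dashed line the median of all genes at 0.34. Cytokines lie to the left, with a median of -2.45 and no red point.

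Cytokines and growth factors had no member higher in mast cell-like cells. Of 18 genes, 12 passed the filter and 8 were higher in basophil-like cells (Il4, Il13, Il6, Il1b, Osm, Csf1, Areg and Hgf), with a median log2 ratio of -2.45. Among all genes tested, 7.9% were higher in basophil-like and 17.2% in mast cell-like cells. Il13, at -1.09, was not 2-fold higher without sample 1 (-0.97), without sample 2 (-0.42) or with a pseudocount of 50 CPM (-0.78), and was higher in basophil-like cells in only 2 of 4 samples. Of 49 UMIs of Areg in basophil-like cells, 41 came from sample 4 and 25 from 1 cell. Of 12 chemokines, 6 were higher in basophil-like cells (Ccl3, Ccl4, Ccl6, Ccl9, Cxcl2 and Cxcl3) and 3 in mast cell-like cells (Ccl1, Ccl2 and Xcl1), and the median was -0.77. Ccl1 did not stay 2-fold higher when basophil-like cells were set at 3 counts, nor without sample 2 (0.89).

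Growth factor and cytokine receptors were called mainly toward the basophil-like cells. All genes tested were called in 7.9% toward these cells and in 17.2% toward the mast cell-like cells. Kit, which grouped the cells, stood at 1085 CPM (922 to 1268), 825 CPM (749 to 907) and 1742 CPM (1450 to 2075) in mast cell-like cells of samples 1, 2 and 4 and had 4 UMIs in all basophil-like cells. ILC2-like cells also used Kit, at 618, 824, 460 and 502 CPM in samples 1 to 4. Of 14 growth factor and cytokine receptors that passed the filter, Kit and Il9r were higher in mast cell-like cells, the latter no longer with basophil-like cells set at 3 counts, and Il3ra, Il1rap, Il18r1, Il18rap and Il7r in basophil-like cells. Without sample 4, Il3ra (-0.61) and Il1rap (-0.77) were not 2-fold higher. Il18rap, a chain of the interleukin-18 receptor, stood at 868 and 1410 CPM in basophil-like cells of samples 1 and 3 and at 13.7 to 44.3 CPM in mast cell-like cells of samples 1, 2 and 4. Il1rl1, which encodes the interleukin-33 receptor ST2, was found in both states with a log2 ratio of 0.15. It stood at 316, 285 and 1296 CPM in mast cell-like cells of samples 1, 2 and 4 and 452 and 287 CPM in basophil-like cells of samples 1 and 3.

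The IgE receptor and its signalling genes were called in both directions. All 17 genes passed the filter, 5 were higher in mast cell-like cells, 2 in basophil-like cells and 10 in neither, and the median log2 ratio was 0.28. Over all genes 17.2% were higher in mast cell-like and 7.9% in basophil-like cells, and the median was 0.34, close to that of this list. Without Fcer1a and Ms4a2, which were in the rule, 4 and 2 of 15 genes were called. Fcer1a, Lyn, Fyn, Grap2 and Inpp5d were higher in mast cell-like cells, and the low-affinity IgG receptor genes Fcgr3 and Fcgr2b in basophil-like cells. Lyn, Fyn and Fcgr2b were not 2-fold different without 1 of the samples, Lyn without sample 3 (0.89), Fyn without sample 1 (0.86) or 4 (0.84) and Fcgr2b without sample 1 (-0.84) or 2 (-0.96). Among inhibitory and sensing receptors, 15 of 21 passed the filter, and 7 were higher in basophil-like cells, among them the complement receptor genes C3ar1 and C5ar1, while P2rx7, an ATP-gated channel gene, and Mrgprb1 were higher in mast cell-like cells, the latter from 1 cell.

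Adhesion and homing genes also differed between the states. Itgae, which encodes the CD103 chain that binds E-cadherin on epithelium, stood at 220, 216 and 279 CPM in mast cell-like cells of samples 1, 2 and 4 and had no UMI in basophil-like cells, at least 11.7-fold lower. Itga4 was also higher in mast cell-like cells. Itga2, Itgb1, Ccr1 and Cxcr4 were higher in basophil-like cells. Itgam and Ccr2 were too, but not 2-fold without sample 1 (-0.56 and -0.90), and Itgam turned to 0.06 without sample 2. Cd34, which encodes a sialomucin of progenitors and mast cells, stood at 309, 289 and 237 CPM in mast cell-like cells of samples 1, 2 and 4 and had no UMI in basophil-like cells.

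Of 13 transcription factors that passed the filter, Mitf, Meis1, Bhlhe40 and Ikzf2 were higher in mast cell-like cells, Ikzf2 not without sample 1 (0.77) or 2 (0.86), and Gata2, Cebpa, Cebpb and Stat5a in basophil-like cells. For all genes the shares in these directions were 17.2% and 7.9%. Mitf, the factor that mast cells need downstream of Kit, stood at 158, 131 and 320 CPM in mast cell-like cells of samples 1, 2 and 4 and had 1 UMI in basophil-like cells. Cebpa, a factor of the basophil lineage, had 24 UMIs in basophil-like and 2 UMIs in mast cell-like cells. The rule bears on the Gata2 call, since 23 of 36 basophil-like but 3 of 76 mast cell-like cells reached the sum of 3 UMIs only with their Gata2 UMIs. Gata2 stood at 1598 and 1646 CPM in basophil-like cells of samples 1 and 3 and at 439, 565 and 627 CPM in mast cell-like cells of samples 1, 2 and 4.

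Ahr, the gene of the aryl hydrocarbon receptor, stood at 1195 CPM (1024 to 1386), 809 CPM (734 to 891) and 1477 CPM (1209 to 1786) in mast cell-like cells of samples 1, 2 and 4, with 13 UMIs in sample 3. ILC2-like cells stood at 318, 195, 197 and 312 CPM and all other cells at 115, 125, 105 and 110 CPM in samples 1 to 4, and the basophil-like cells had 14 Ahr UMIs in all. The series includes AhR-deficient mice, and the labels do not give which samples these are. Counts of Ahr transcripts therefore do not show that a working receptor was present in a sample. Of 7 genes of the receptor and its targets, 5 passed the filter and Ahr, Ahrr and Nqo1 were higher in mast cell-like cells, but Ahrr and Nqo1 rested on 17 and 16 UMIs and were not 2-fold higher with basophil-like cells set at 3 counts. The share of all genes higher in mast cell-like cells was 17.2%. Cyp1a1 and Cyp1b1, induced by the receptor in many tissues, had no UMI in either state.

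Proliferation and early response genes were mixed. Over all genes, 17.2% were higher in mast cell-like and 7.9% in basophil-like cells. Of 21 mast cell-like cells with a UMI of Mki67 or Top2a, 15 lay in sample 2, and their median depth was 16838 UMIs against 6780 in the other 55 cells. Of 10 cell cycle genes that passed the filter, Mki67, Ccnb2, Pcna, Mcm5 and Stmn1 were higher in mast cell-like cells, Mcm5 no longer with basophil-like cells set at 3 counts. These calls rested on sample 2, which held 111 of the 125 Mki67 UMIs. Without it Mki67 stood at 59.3 CPM in mast cell-like and 68.9 CPM in basophil-like cells, and of the 5 genes only Stmn1 stayed 2-fold higher. Of 13 immediate early genes, Jun and Atf3 were higher in mast cell-like cells, Dusp1 and Ier3 in basophil-like cells, and 9 in neither. With each sample left out in turn, only Ier3 stayed 2-fold different throughout.

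Markers of other cell types were counted in both states, and their part in the results was not tested. Fibroblast markers summed to 1723 and 518 CPM in mast cell-like cells of samples 1 and 2, to 0 in samples 3 and 4 and to 12.4 CPM in basophil-like cells. All 5 had UMIs, Dcn was the most abundant, and its 193 UMIs lay in 4 cells. The 5 genes that varied most between the mast cell-like cells of samples 1, 2 and 4 were Cxcl13, Igha, Tpsb2, Iglc2 and Dcn. Cxcl13 stood at 1503 CPM in sample 1, where 219 of its 223 UMIs lay in 1 cell, and Dcn at 776 CPM in sample 1, with 113 of its UMIs in 1 cell. The immunoglobulin genes Igha and Iglc2 stood at 2719 and 798 CPM in sample 2, against 9589 and 551 CPM in all other cells of that sample, and 397 of 417 Iglc2 UMIs and 789 of 1429 Igha UMIs lay in 1 cell each.

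Neutrophil markers summed to 5852 CPM in the mast cell-like cells of sample 4 and to 659 and 538 CPM in those of samples 1 and 2, and 183 of 267 S100a8 UMIs lay in 1 cell of sample 4. In basophil-like cells of samples 1 and 3 neutrophil markers summed to 799 and 601 CPM, against 6413 to 29007 CPM in other cells, and Csf3r was 0 by the rule. Of 6 eosinophil markers, Epx, Prg3 and Ear6 had no UMI in either state. The list summed to 17.2 CPM in mast cell-like cells, led by Siglecf at 11.9 CPM, and to 31.1 CPM, all Ccr3, in basophil-like cells, against 4.74 CPM in other cells. Endothelial markers other than Pecam1 were at or near 0 in both states, and Pecam1 itself stood at 433 CPM in mast cell-like and 534 CPM in basophil-like cells.

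The genes that varied most between the basophil-like cells of samples 1 and 3 were Mt1, Gm13889, Sparcl1, Rgs5 and Tagln, which were at 0 in sample 1. All 24 UMIs each of Rgs5 and Tagln, genes of pericytes and smooth muscle, lay in 1 cell of sample 3 that had 3 UMIs of Gata2, 0 of Hdc and 0 of Cd200r3. This cell had no UMI of Mcpt8 and 4 UMIs of Il6, and without it 1409 and 590 genes were higher in mast cell-like and basophil-like cells.

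The 3 cells with at least 2 UMIs of Cdh5, 1 in sample 1 and 2 in sample 3, also met the rule by Gata2. Their endothelial markers summed to 10042 CPM, 9 of 10 had UMIs, and Flt1 led with 3279 CPM. They had 0 UMIs of Cpa3, Ms4a2, Mcpt8, Mcpt1, Mcpt2 and Cd200r3 and 1 UMI of Hdc, so the data went against the label for these cells, and they were left out of both states.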

How the data were processed

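The authors made 10x Genomics libraries from colonic lamina propria cells bound to CD45 magnetic beads and deposited, for each cell, unnormalized UMI counts of every gene. The header of the deposited files names Cell Ranger 7.0.1, whereas the submitters' processing notes name Cell Ranger 5.0.0, STAR, Seurat and mm10. Of 45229 deposited cells, 43432 with at least 200 genes and under 20% mitochondrial UMIs were kept. Kept cells outside the rule served as other cells. The comparison sets were B cells (at least 5 UMIs of Cd79a, Cd79b and Ms4a1), T cells (3 of Cd3e, Cd3d and Cd3g), neutrophils (2 of Csf3r and 20 of S100a8 and S100a9), phagocytes (5 of the C1q genes and 1 of Csf1r) and ILC2-like cells (1 each of Gata3, Rora and Il7r), each without lineage genes of the others. No doublet caller was run, and the lineage genes of the rule stood in for one.

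Counts were summed per state and sample and scaled to CPM. Sums of 2 states were compared as log2(CPM + 20) for genes with at least 10 UMIs, and a 2-fold ratio was called. States were not tested against each other, since they were formed from the same counts, and samples were not, since the labels do not give their genotype. Members and lists were chosen with earlier results of these data known, and the 2 states after the values were seen. Genes were named by fixed rules: the members of the lists, the 15 with the largest ratio against other cells (the smallest ratio over the samples with at least 10 cells), the 12 with the largest ratio in each direction between states, and the 5 with the widest range over samples. Other alternatives were a pseudocount of 5 or 50 CPM, other thresholds, and each sample or single cells left out. 1 gene of the adhesion and homing list is not reported here, and that list has no count, median or plot. Code was checked on simulated data. Positions are from GENCODE M21 on GRCm38, where 32158 of 32285 identifiers were found. Python 3.11.15, numpy 2.4.6, scipy 1.17.1, pandas 2.3.3 and matplotlib 3.10.9 were used.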

Additional observations from a re-analysis of the deposited data

How the results depend on the processing

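Over 7 alternatives to the rule, 80 to 143 cells were chosen (115 as reported), and basophil-like cells numbered 29 to 44. Mast cell-like cells fell to 50 when 0 UMIs of 7 further lineage genes were required, and the basophils of the Mcpt8 split fell to 18 at 5 UMIs. For that split, the genes higher in mast cells and in basophils, 287 and 703 as reported, numbered 455 and 1056 with a pseudocount of 5 CPM, 135 and 302 with 50 CPM, and 116 and 271 with at least 30 UMIs. Without a filter on low counts 520 were higher in mast cells. Leaving out each sample in turn gave 281 to 376 and 570 to 907 genes. The alternatives between mast cell-like and basophil-like cells were chosen after seeing the data. Of genes higher in mast cell-like cells, 1308 as reported, there were 2442 with a pseudocount of 5 CPM, 445 with 50 CPM and 691 with the states divided at 10 UMIs, and leaving out each sample gave 1079 to 1667 against 551 to 654 higher in basophil-like cells. Of 28 genes followed over 13 settings, 25 kept the sign of their log2 ratio and 3 did not, but Cpa3 (0.54), Mcpt4 (0.99) and Il13 (-0.42 without sample 2) lost the 2-fold call under some settings, and Mcpt8 (-0.65) with each cell weighted equally. Gzmb, at -0.14, turned to 0.16 with each cell weighted equally, 0.20 without cells over 3 times the median depth, 0.04 without sample 2 and 0.21 without sample 3, and ran from -0.38 to 0.21 over the samples left out. Mcpt8, at -1.49, turned to 1.0 and Prss34, at -6.56, to 0.41 without the 1 cell of sample 4, and over the samples left out they ran from -2.01 to 0.86 and from -7.27 to 0.45, the highest without sample 4. The cause of the other changes was not tested. No paired test of the states was made because they were formed from the same counts. Both states were found in every sample, and 23 of 27 called genes among those followed had the direction of their call in all 4. Mcpt8, Il13, Prss34 and Itgae did not. The followed genes include Kit, Mcpt1 and Mcpt2, which grouped the cells, and Cpa3 and Mcpt8, which were in the rule. They were chosen with results of these data known, so the count is a description and no test. Depth limits low genes: 436 of the 1308 genes had 0 UMIs in the 36 basophil-like cells.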
